A study of Mus musculus with 3 samples.

Results

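The cathepsins are proteases, many of which act in the lysosome. The 10 mouse genes described here, Ctsa, Ctsb, Ctsc, Ctsd, Ctse, Ctsh, Ctsk, Ctsl, Ctss and Ctsz, were chosen by symbol from the 55418 annotated gene symbols of the data. The gene Gm49369, whose exons overlap those of Ctsd on the same strand, is given beside Ctsd and is not counted among the 10. Ribosomal RNA was removed from total RNA of the cytosol of primary macrophages grown from bone marrow (BMDM) of the inbred mouse strain C57BL/6J, and the rest was sequenced. The cells had received lipid A, the membrane anchor of bacterial lipopolysaccharide and a ligand of Toll-like receptor 4, at 100 ng/ml for 90 minutes. All 3 libraries belong to this 1 group. They are numbered as biological replicates 1, 2 and 3, each made from 1 µg of RNA, and share a donor identifier. Sex and age were not collected, no allele or transgene is named, and the labels do not say whether the replicates were separate cultures, so p-values measure only the spread between these libraries. Unstimulated cells and other times were not analysed here, and no statement is made on what lipid A changed.

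Cathepsins are made as inactive precursors, carried to the lysosome mainly by mannose 6-phosphate receptors, and cut to their active form at acid pH. Most are cysteine proteases of the papain family. Cathepsins D and E are aspartic proteases, and cathepsin A is a serine carboxypeptidase. In macrophages they degrade engulfed material and, with cathepsin S in a leading role in antigen-presenting cells, trim the invariant chain of MHC class II molecules.

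Between 33821479 and 59390843 expected counts (reads shared out among genes by a model, so not always whole) were deposited per library, with replicate 1 the smallest. A count of 0 allows up to 3 counts, or 0.0891, 0.0628 and 0.0506 CPM (counts scaled to the size of the library) in the order of the replicates, which covers counting error alone. Each library was quantified in separate ways that are called the first and the second quantification here. Levels are in TPM, an abundance corrected for transcript length, from the first quantification unless the second is named. Of the listed macrophage markers 9 of 9 lay above the reference defined below, with summed levels of 5296 to 7324 TPM, although Itgam (0.62) and Mertk (0.61) lost that call against a reference of genes of at least 5 TPM. Markers of other cells had smaller sums: the fibroblast list summed to 0.09 to 0.2 TPM, T and NK cells to 0.01 to 0.04, B cells to 0.37 to 0.7, dendritic cells to 1.13 to 1.62 and neutrophils to 24.7 to 42.6 TPM. Most of the neutrophil sum came from S100a9 (23.2, 13.0 and 21.6 TPM), which lay above the reference, and S100a8 (15.0, 7.77 and 13.8 TPM), which was not called. S100a9 lost its call against the reference of genes of at least 5 TPM (0.47) and in the second quantification (0.94), and S100a8 was called above with FPKM (1.06) and without replicate 2 (1.09). The part of such cells in the cathepsin levels was not tested.

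Of the cathepsin genes 8 were abundant, and the remaining pair, Ctsk and Ctse, had 1.33 TPM or less in every library. To place them, the level of each gene was set against a reference within its own library, the median over the 8747 protein-coding genes that averaged at least 1 TPM. That median was 7.38, 6.08 and 6.21 TPM in replicates 1, 2 and 3. Members above it by a log2 difference of at least 1 numbered 8 (limma, Benjamini-Hochberg adjusted p = 3.17e-05 for each), where 20.5% of the 13327 genes tested, and 23.4% of the protein-coding genes among them, were above by that rule. The other 2 members lay below it, as did 50.6% of the genes tested. The median log2 difference was 5.23 over the 10 members and -1.06 over all genes tested. Among 21992 protein-coding symbols ranked by mean TPM, 2 members stood in the first 10, 5 in the first 100 and 8 in the first 500. In bulk RNA, the number of cells that carry a transcript and the amount in each cell cannot be told apart.

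**Figure D1:**
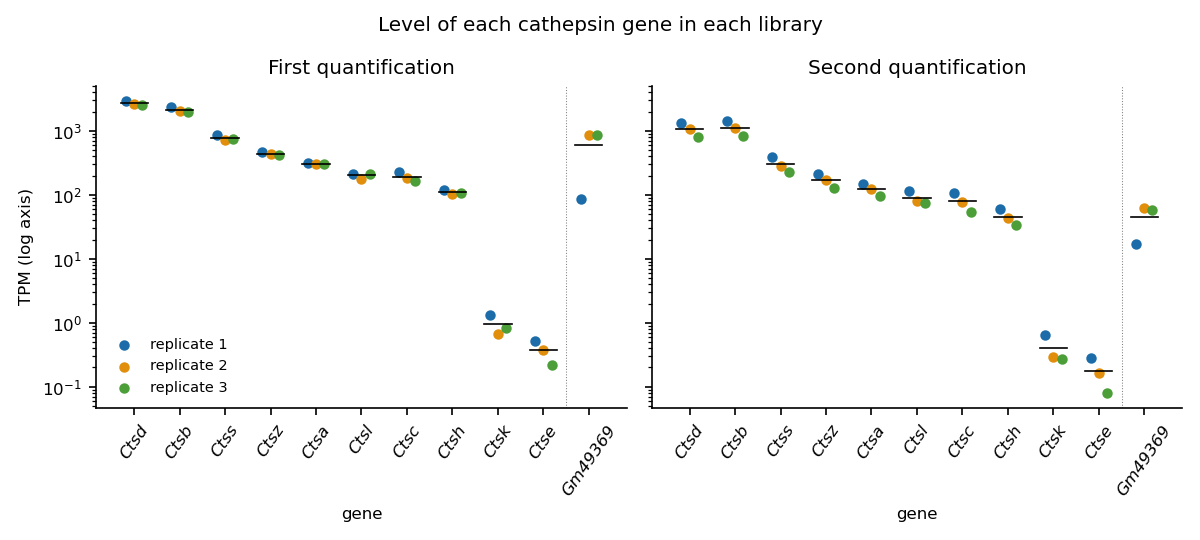
TPM (log axis) of the 10 cathepsin genes and, right of the dotted line, Gm49369 in each library, by the first (left) and second (right) quantification; points are replicates 1 to 3 and lines are means. In the first quantification 8 members lie between 102 and 2982 TPM and Ctsk and Ctse between 0.22 and 1.33 TPM, while Gm49369 is low in replicate 1 alone.

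**Figure D2:**
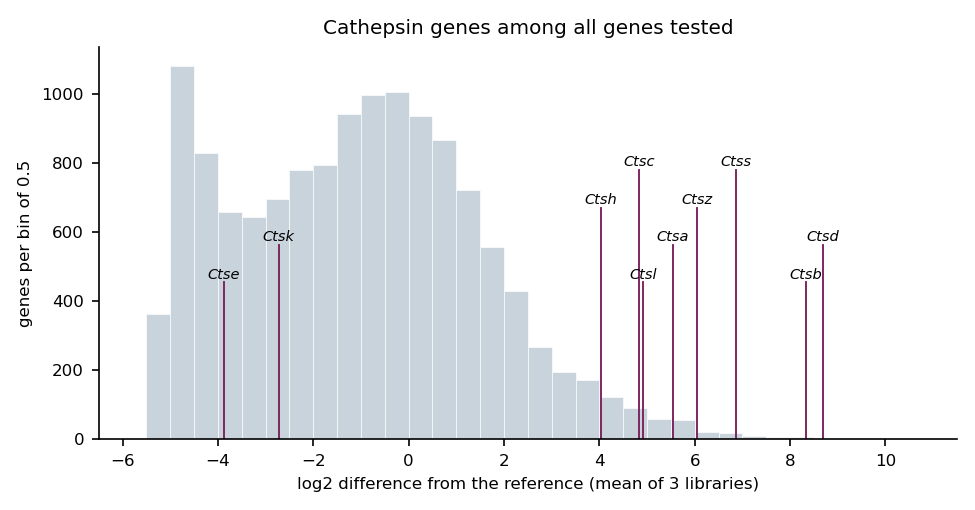
Number of genes (vertical axis) by log2 difference from the reference (horizontal axis, mean of 3 libraries, bins of 0.5) for the 13327 genes tested; vertical lines mark the 10 cathepsins and their heights only separate the names. The upper tail holds 8 members, at 4.04 or more, and Ctse and Ctsk lie at -3.87 and -2.72.

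Without Gm49369, the family held a steady part of the protein-coding message pool. The 10 genes summed to 7539, 6652 and 6470 TPM in replicates 1, 2 and 3. As a share of all protein-coding TPM this was 2.82%, 3.03% and 2.89%, or 2.92% ± 0.105 (SD, n = 3). Ctsd alone held 1.16% ± 0.0511 and Ctsb 0.902% ± 0.0283. These shares leave out Gm49369, to which 85.1, 850 and 876 TPM were assigned. Together with Ctsd it had 3067, 3515 and 3423 TPM. Reads in the exons shared by both genes cannot be divided from these tables, so the steadiness holds only for the values as assigned. The cysteine proteases summed to 3846 ± 347 TPM, the aspartic proteases to 2732 ± 225 TPM and the serine carboxypeptidase Ctsa to 310 ± 1.94 TPM (SD, n = 3). The share depended on the measure. It was 3.11% ± 0.155 in the second quantification, and 3.77% ± 0.192 of the expected counts, which are not corrected for length.

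Of the aspartic proteases, Ctsd encodes the main lysosomal one, which is made in nearly all cells. The gene (ENSMUSG00000007891.16) lies on the minus strand at chr7:142375911-142388038 (mm10). Its levels were 2982, 2666 and 2547 TPM in replicates 1, 2 and 3. This was the highest level of the family in each library and rank 5 among protein-coding genes, 8.68 ± 0.06 log2 units over the reference (SD, n = 3; 411-fold). Most of this signal fell on 2 protein-coding transcripts, Ctsd-202 and Ctsd-201. Inside the coding region they differ by 18 bases at the end of exon 6 (410 against 404 codons). They also differ in the lengths of exons 1 and 9. They are shown because the quantifications divided the gene between them in different ways. The lines give 24 bases up to the difference and 24 after it, from GENCODE M21 transcripts on the minus strand at chr7:142377147-142377374 (mm10), with the extra bases in capitals.
Ctsd-202: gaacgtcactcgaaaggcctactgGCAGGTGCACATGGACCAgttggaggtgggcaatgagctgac
Ctsd-201: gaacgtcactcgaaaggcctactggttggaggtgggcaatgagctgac

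In the first quantification Ctsd-202 had 2042, 1390 and 1377 TPM and the shorter Ctsd-201 had 929, 1270 and 1164 TPM. These values gave Ctsd-202 58.2% ± 8.93 and Ctsd-201 41.5% ± 9.01 of the gene (SD, n = 3), with replicate 1 standing apart from the other libraries. In the second quantification Ctsd-201 had only 12.5, 5.84 and 3.80 TPM, and Ctsd-202 held 99.3% ± 0.234. Of the 1892 stretches of 31 bases in Ctsd-201, 29 (1.53%) occurred in no other annotated transcript, against 187 of 2097 in Ctsd-202. The split differed between the quantifications and is uncertain. Its cause was not tested.

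Gm49369 (ENSMUSG00000110040.1) is annotated as protein-coding at chr7:142371096-142382667 on the minus strand (mm10). Its transcripts start within Ctsd and end beyond it. Of the 833 bases of the longer model, 670 (80.4%) lie in exons of Ctsd-202, and the 163 outside are its last exon, chr7:142371148-142371310, which falls inside an exon of Ifitm10, the next gene. The other model has 604 of 819 bases (73.7%) in exons of Ctsd-202. The lines below show the join that tells the longer model from Ctsd: the last 24 bases of the exon that both share, in lower case, and the first 36 of the exon that follows, in capitals (minus strand, chr7:142376703-142376856 for Ctsd and chr7:142371275-142376856 for Gm49369, mm10).
Ctsd-202, exons 8 and 9: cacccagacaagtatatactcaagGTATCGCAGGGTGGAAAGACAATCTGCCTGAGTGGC
Gm49369, exons 5 and 6: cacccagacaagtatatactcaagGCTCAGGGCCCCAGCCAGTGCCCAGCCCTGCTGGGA

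The value assigned to Gm49369 was 85.1 TPM in replicate 1 and 850 and 876 TPM in replicates 2 and 3, from 3014, 49806 and 62585 expected counts. It was thus low in replicate 1 alone. Its SD of log2 CPM was 2.11, beyond the spread of genes of its abundance (edgeR goodness of fit to the trended dispersion, Benjamini-Hochberg adjusted p = 1.41e-30), a call met by 2.28% of the 12330 genes tested. Without replicate 1 that SD was 0.01 and the call was lost (adjusted p = 1.00). The level lay 5.91 ± 2.08 log2 units over the reference (limma, adjusted p = 0.00476). Nearly all of the longer model, 776 of 803 stretches of 31 bases (96.6%), also occurred in transcripts of other genes, 641 of them in Ctsd and 135 in Ifitm10. Ifitm10 itself had 4, 5 and 6 expected counts.

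The second quantification gave Gm49369 17.1, 62.4 and 58.0 TPM, again lowest in replicate 1. Relative to the median shift between the quantifications this was a log2 ratio of -2.08 ± 0.69 (SD, n = 3; limma, Benjamini-Hochberg adjusted p = 0.0206), a call that 1.93% of the 9481 genes tested met in that direction. The call was lost without replicate 2 (-1.84, adjusted p = 0.1001) or replicate 3 (-1.92, adjusted p = 0.0823). As a share of Ctsd plus Gm49369, Gm49369 took 2.78%, 24.2% and 25.6% in the first quantification and 1.26%, 5.53% and 6.68% in the second. Summed, the pair had 3067, 3515 and 3423 TPM in the first quantification, so replicate 1, highest for Ctsd alone, was lowest for the sum. The sum was 1350, 1128 and 868 TPM in the second quantification, with replicate 1 the highest. Reads in the shared exons cannot be given to either gene from these tables, and the level of Gm49369 is uncertain.

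**Figure D3:**
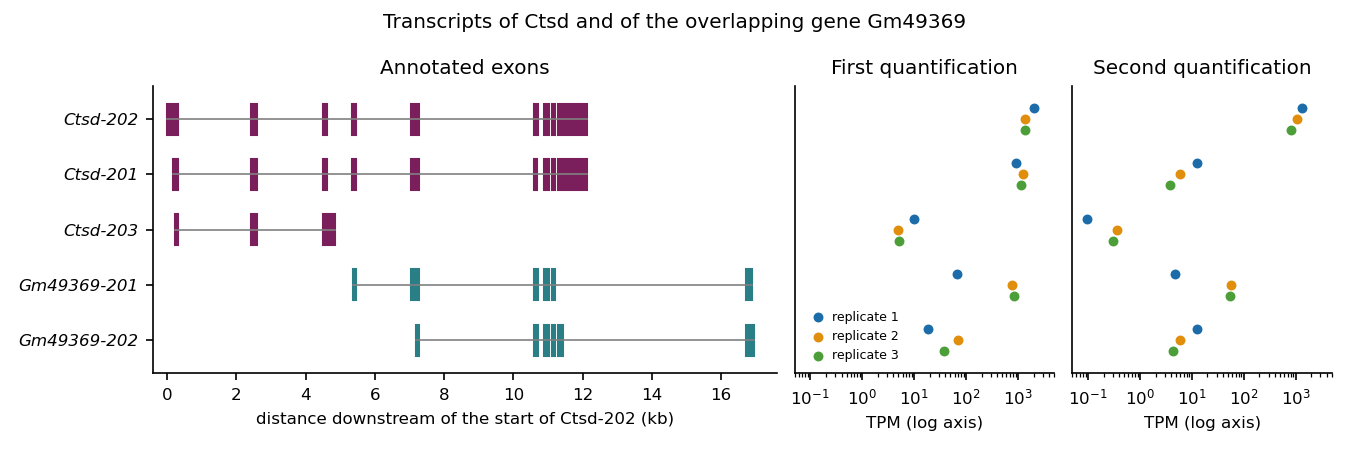
Left, annotated exons of the Ctsd (purple) and Gm49369 (teal) transcripts by distance from the start of Ctsd-202 in kb, drawn in the direction of transcription; right, TPM (log axis) of each transcript in replicates 1 to 3 by the first and the second quantification. Ctsd-201 lies at 929 TPM or more in the first quantification and at 12.5 or less in the second, and the longer Gm49369 model is lowest in replicate 1 in both.

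Ctse encodes the second aspartic protease, which sits in endosomes of immune and epithelial cells rather than in the lysosome proper. The gene (ENSMUSG00000004552.16, chr1:131638306-131675505, plus strand) had 0.52, 0.37 and 0.22 TPM, from 59, 67 and 49 expected counts. It was the lowest member in every library, at rank 9962 among protein-coding genes and -3.87 ± 0.38 log2 units on the scale of the reference (adjusted p = 0.000126 by limma). The counts lay well over the 3 that a count of 0 allows, so the transcript was detected in each library.

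Among the cysteine proteases, Ctsb encodes an enzyme that both cuts within proteins and removes dipeptides from their ends. The gene (ENSMUSG00000021939.8, chr14:63122462-63145923, plus strand) had 2369, 2051 and 1975 TPM, rank 8 among protein-coding genes and 8.32 ± 0.04 log2 units over the reference. Per length it was second to Ctsd in each library, by 0.36 ± 0.02 log2 units (1.28-fold). In expected counts, which grow with length, Ctsb had 555744, 861982 and 997851 against 323495, 456915 and 532180 for Ctsd. The leading transcripts are 4743 and 2127 bases long. In the second quantification Ctsb was the higher per length in 3 of 3 libraries. The mean log2 difference of Ctsd minus Ctsb was -0.07 ± 0.04 there. With Gm49369 added, Ctsd had 1350, 1128 and 868 TPM there, against 1437, 1107 and 832 TPM for Ctsb. Of these Ctsb values, 551, 363 and 266 TPM were assigned to the retained-intron model Ctsb-202. The first place in the family thus depends on the quantification and on how Gm49369 is counted.

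The coding transcript Ctsb-201 had 2028, 2009 and 1908 TPM. The retained-intron model Ctsb-202, 801 bases with no annotated coding region, had 340 TPM in replicate 1 and 39.8 and 61.8 TPM in replicates 2 and 3. It took 6.47% ± 6.84 of the gene in the first quantification and 34.4% ± 3.45 in the second, where it had 551, 363 and 266 TPM. This division therefore moved with the quantification, and the first quantification set replicate 1 apart. Only 88 of the 771 stretches of 31 bases in Ctsb-202 occurred in no other transcript. In part, Ctsb-201 overlaps Fdft1, a gene of sterol synthesis on the opposite strand, with 744 of its 4713 stretches of 31 bases in common. Fdft1 had 2.87 ± 0.888 TPM (SD, n = 3), far under Ctsb.

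Ctss encodes the cathepsin that stays active at neutral pH and is made mainly by antigen-presenting cells. The gene (ENSMUSG00000038642.10, chr3:95526786-95556403, plus strand) had 853, 733 and 741 TPM, rank 28 and 6.87 ± 0.03 log2 units over the reference. Its SD of log2 CPM, 0.04, was the smallest of the family. Its 2 transcripts differ by 3 coding bases at the start of exon 2, which gives 341 against 340 codons. Ctss-202, which lacks these bases, ends 3 bases later, so both transcripts are 1355 bases long. They are shown because both quantifications divided them alike (plus strand, chr3:95526902-95529460, mm10; the extra bases are in capitals).
Ctss-201: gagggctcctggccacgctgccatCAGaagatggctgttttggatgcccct
Ctss-202: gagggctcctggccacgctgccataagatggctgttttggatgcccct

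Ctss-202, without the 3 bases, had 741, 629 and 637 TPM and Ctss-201 had 112, 104 and 103 TPM. Ctss-202 held 86.2% ± 0.545 of the gene in the first quantification and 86.1% ± 0.652 in the second (SD, n = 3). Each form had 33 of 1325 stretches of 31 bases to itself. Unlike the division of Ctsd, this one was the same to within the spread between the libraries.

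Ctsz (cathepsin Z, also called X) encodes a carboxypeptidase that removes single residues and carries an integrin-binding motif in its propeptide. The gene (ENSMUSG00000016256.10, chr2:174427493-174439039, minus strand) has 1 annotated transcript and had 461, 434 and 414 TPM. It stood at rank 60 and 6.04 ± 0.09 log2 units over the reference, and all 1411 of its stretches of 31 bases are its own.

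Ctsl encodes an endopeptidase of the lysosome that is also secreted. The gene (ENSMUSG00000021477.9, chr13:64359337-64370890, minus strand) had 215, 176 and 213 TPM, rank 166 and 4.92 ± 0.14 log2 units over the reference. Replicate 2 was the lowest. The coding transcript Ctsl-201 took 95.9% ± 3.08 of it in the first quantification and 77.2% ± 2.32 in the second. All 1941 stretches of 31 bases in Ctsl-201 also occurred in another annotated transcript, and this split is uncertain.

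Ctsc encodes dipeptidyl peptidase I, which removes dipeptides from the front of proteins and thereby activates the proteases of neutrophil, mast cell and lymphocyte granules. The gene (ENSMUSG00000030560.17, chr7:88278085-88310888, plus strand) had 226, 183 and 165 TPM, rank 180 and 4.84 ± 0.11 log2 units over the reference. Ctsl and Ctsc could not be put in order: Ctsc was higher in replicates 1 and 2 and Ctsl in replicate 3, with a mean log2 difference of 0.08 ± 0.25. In the second quantification Ctsl was the higher in 3 of 3 libraries.

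More of the Ctsc signal fell on the short model Ctsc-203, with 137 codons, than on Ctsc-201, which encodes the enzyme of 462 codons. Ctsc-203 leaves the full-length form after exon 2 and ends in a last exon of 2748 bases. The lines give the last 24 bases of exon 2, in lower case, and the first 36 of exon 3 of each model, in capitals (plus strand, chr7:88281509-88297118 for Ctsc-201 and chr7:88281509-88286929 for Ctsc-203, mm10).
Ctsc-201: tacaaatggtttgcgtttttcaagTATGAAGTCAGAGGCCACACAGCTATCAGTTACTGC
Ctsc-203: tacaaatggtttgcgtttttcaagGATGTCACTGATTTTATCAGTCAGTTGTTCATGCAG

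Ctsc-203 had 158, 123 and 107 TPM and Ctsc-201 had 64.2, 57.2 and 52.6 TPM, so the short form was higher in 3 of 3 libraries. The shares were 67.4% ± 2.60 and 30.5% ± 1.86 in the first quantification, and 63.5% ± 3.32 and 27.3% ± 1.19 in the second. Both models are well separated in sequence, with 2784 of 3190 and 1659 of 2463 stretches of 31 bases found in no other transcript. How much of the signal of Ctsc-203 comes from reads within its long last exon was not tested, since the tables hold no positions of reads.

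Ctsh encodes an aminopeptidase. The gene (ENSMUSG00000032359.14, chr9:90054152-90076089, plus strand) had 119, 102 and 107 TPM, rank 349 and 4.04 ± 0.04 log2 units over the reference, the lowest of the 8 abundant members. A large part was assigned to Ctsh-202, a model marked for nonsense-mediated decay, the pathway that removes messages with an early stop codon. Ctsh-202 skips exon 3 of Ctsh-201, 106 bases, and its annotated frame ends after 41 codons instead of 333. In the lines below the capitals mark exon 3 in Ctsh-201 and the stop codon in Ctsh-202 (plus strand, chr9:90060487-90062740, mm10).
Ctsh-201: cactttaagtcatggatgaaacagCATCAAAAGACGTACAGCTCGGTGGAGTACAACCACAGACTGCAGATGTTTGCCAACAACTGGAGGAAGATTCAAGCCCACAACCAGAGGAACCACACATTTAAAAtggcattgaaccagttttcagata
Ctsh-202: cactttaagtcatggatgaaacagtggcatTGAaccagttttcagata

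Ctsh-201 had 70.5, 57.1 and 57.0 TPM and Ctsh-202 had 47.4, 42.1 and 47.3 TPM. The skipped form thus held 41.8% ± 2.32 of the gene in the first quantification and 26.1% ± 1.15 in the second (SD, n = 3). It ranked behind Ctsh-201 in every library of both. Only 27 of its 1208 stretches of 31 bases are found in no other transcript.

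Ctsk encodes the collagen-degrading enzyme for which osteoclasts, the bone-resorbing relatives of macrophages, are known. The gene (ENSMUSG00000028111.4, chr3:95499256-95509362, plus strand) had 1.33, 0.66 and 0.83 TPM, from 101, 81 and 124 expected counts. This was -2.72 ± 0.32 log2 units on the same scale (adjusted p = 0.000211 by limma), or 6.61-fold under it, at rank 8849. Ctsk ends 17423 bases before Ctss on the same strand, and Ctss had 776 ± 67.5 TPM where Ctsk had 0.940 ± 0.348. Of 9 osteoclast markers, 6 were tested and 2 lay above the reference, beside 20.5% of all genes tested. These were Atp6v0d2, a proton pump subunit (42.3, 38.7 and 58.6 TPM), and Acp5, tartrate-resistant acid phosphatase (13.0, 12.0 and 15.8 TPM). The call of Acp5 was lost with a pseudocount of 1 TPM, with the reference of genes of at least 5 TPM, in the second quantification and without replicate 3.

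The other osteoclast markers were lower. Dcstamp and Mmp9 lay below the reference at 0.11 to 0.34 TPM, as did Itgb3 at 2.90 to 3.45 TPM, although that call was lost with a pseudocount of 1 TPM, with FPKM and without replicate 1. Nfatc1 (6.42 to 8.64 TPM) was not called in either direction, Ocstamp and Oscar had at most 0.02 TPM, and Calcr was at 0. The list summed to 62.3 to 84.2 TPM. The part of such cells in the Ctsk signal was not tested.

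Ctsa, the serine carboxypeptidase, also protects the lysosomal enzymes β-galactosidase and neuraminidase in a complex with them. The gene (ENSMUSG00000017760.16, chr2:164832873-164841032, plus strand) had 312, 308 and 309 TPM, rank 93 and 5.54 ± 0.14 log2 units over the reference. In TPM it was the steadiest member, with a coefficient of variation of 0.625%. Relative to the reference, which was higher in replicate 1, it was less steady. Its partners lay above the reference too: Neu1, the neuraminidase, with 20.6, 18.8 and 18.5 TPM, and Glb1, the β-galactosidase, with 31.2, 26.3 and 24.9 TPM. Neu1 lost that call in the second quantification (0.97) and against the reference of genes of at least 5 TPM (0.52).

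Of Ctsa, 60.0% ± 0.126 was assigned to Ctsa-202 (474 codons) and 28.6% ± 0.194 to Ctsa-210, an incomplete model of 659 bases, which had 89.6, 88.6 and 87.7 TPM. In the second quantification Ctsa-210 took 18.7% ± 1.72 and Ctsa-203 took 11.7% ± 1.14, while Ctsa-202 stayed at 59.1% ± 0.552. Only 26 of 2504 stretches of 31 bases in Ctsa-202 and 27 of 629 in Ctsa-210 occurred in no other transcript. Ctsa-202 has 282 of its 2504 stretches of 31 bases in common with Pltp and 294 with Neurl2, both on the opposite strand. Pltp, a phospholipid transfer protein, had 177 ± 8.04 TPM and Neurl2 1.79 ± 0.238 TPM. The sources used here do not say if reads were counted by strand, which leaves the values of Ctsa and Pltp uncertain where they overlap.

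**Figure D4:**
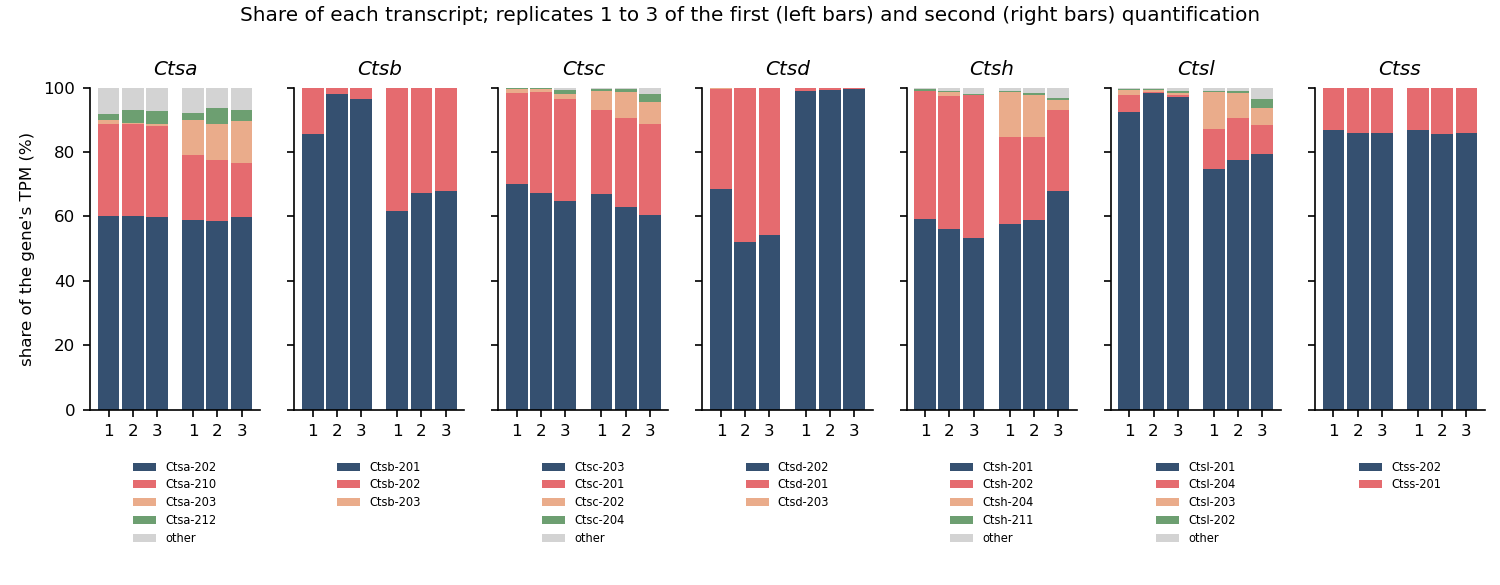
Share of each gene's TPM (%, vertical axis) held by its transcripts for the 7 members with more than 1 expressed transcript; in each panel the left 3 bars are replicates 1 to 3 of the first quantification and the right 3 of the second. The bars of Ctss are alike throughout, whereas Ctsd-201 falls from 41.5% to 0.651% and Ctsb-202 goes from 6.47% to 34.4%.

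By mean TPM the order was Ctsd, Ctsb, Ctss, Ctsz, Ctsa, Ctsl, Ctsc, Ctsh, Ctsk and Ctse. Of the 9 pairs of neighbours, 8 kept their order in 3 of 3 libraries, and Ctsl and Ctsc did not. The widest step by far was from Ctsh to Ctsk, 6.76 ± 0.35 log2 units (109-fold). The next was Ctsb to Ctss, 1.46 ± 0.04 (2.75-fold). Steps of 0.83 ± 0.07 from Ctss to Ctsz, 0.49 ± 0.07 from Ctsz to Ctsa, 0.63 ± 0.16 from Ctsa to Ctsl and 0.80 ± 0.15 from Ctsc to Ctsh were each several times their SD. Ctsk stood over Ctse by 1.15 ± 0.43. With 3 libraries the smallest two-sided p of an exact sign-flip test is 0.25, so no p is given for these steps. In the second quantification 8 pairs again kept this order, but there the exception was Ctsd and Ctsb.

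The spread of the cathepsins between the libraries was close to that of other genes. In edgeR's goodness-of-fit test of the spread 0 of 10 members passed the adjusted threshold, beside 2.28% of all genes tested, a count too near the background to set the family apart. At an unadjusted p under 0.05 it was also 0, the smallest p being 0.270 for Ctse, and with DESeq2 size factors in place of TMM scaling 0 passed as well. The SD of log2 CPM ran from 0.04 (Ctss, Ctsh) through 0.05 (Ctsd), 0.11 (Ctsb) and 0.16 (Ctsl) to 0.36 (Ctsk) and 0.49 (Ctse). The median was 0.12 over the 10 members and 0.12 over all genes tested. For the 8 abundant members it was 0.11, against 0.10 for the 641 genes with a mean log2 CPM of at least 7.9. In TPM, replicate 1 was the highest library for all members, and its reference was the highest as well.

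**Figure D5:**
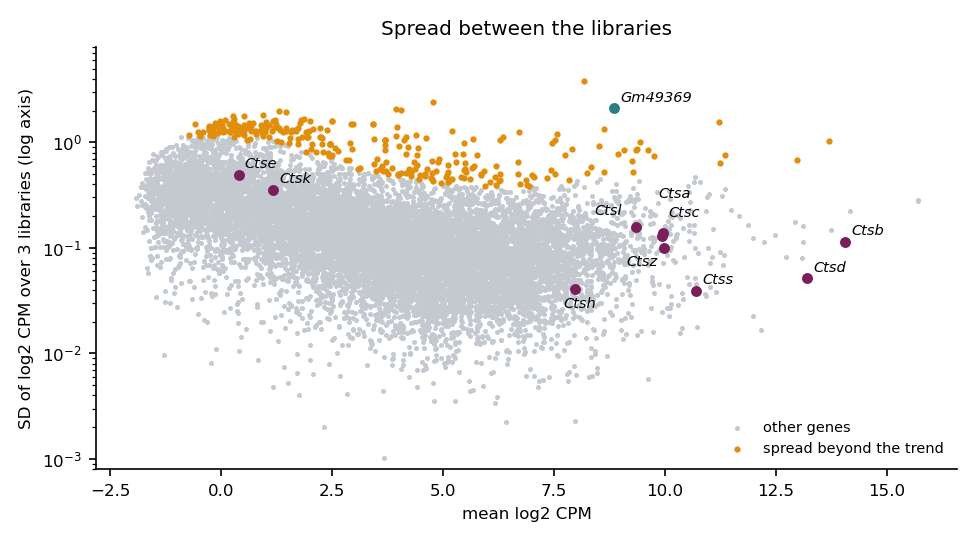
SD of log2 CPM over the 3 libraries (log axis) against mean log2 CPM for the 12330 genes tested; orange points spread beyond the trend (adjusted p under 0.05), purple points are the cathepsins and teal is Gm49369. The 10 cathepsins lie within the grey cloud, with SDs of 0.04 to 0.49, and Gm49369 lies far over it at 2.11.

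The quantifications were compared gene by gene. Over all genes the second quantification gave 0.492, 0.429 and 0.349 of the first in replicates 1, 2 and 3 (median ratios), so ratios were centred on these. Of the 8 members tested 0 were called, where 2.72% of the genes tested were called higher and 1.93% lower. An adjusted p under 0.05 without the required log2 ratio of 1 was met by 4 members, as by 49.2% of all genes (limma, Benjamini-Hochberg). Both counts were near those of genes at large, so neither sets the family apart. Ctsb was higher in the second quantification by 0.30 ± 0.03 log2 units. Ctsd, Ctss and Ctsz were lower, at -0.12 ± 0.02, -0.14 ± 0.04 and -0.14 ± 0.04. Without centring, 7 of the 8 were lower by at least 1 log2 unit and Ctsb by 0.95.

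Of 13 other cathepsin genes, only 2 could be tested, and 0 of these lay above the reference, beside 20.5% of all genes tested. Ctso had 8.35, 7.19 and 7.51 TPM and was not called in either direction. Ctsf had 2.95, 2.89 and 2.48 TPM and lay below, a call lost with a pseudocount of 1 TPM. Ctsw and Ctsg, the cathepsins of cytotoxic lymphocytes and of neutrophil granules, had at most 0.11 TPM. The other 9, among them the cluster of placental cathepsins, were at 0 in all libraries.

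The inhibitors were represented by cystatins that act in different places. Cstb, which acts inside the cell, had 341, 267 and 282 TPM, and the secreted Cst3 had 298, 217 and 206 TPM. Both lay above the reference. Cst7, which is found in endosomes and lysosomes and inhibits cathepsin C among others, had 5.08, 4.72 and 3.82 TPM and was not called, except below the reference of genes of at least 5 TPM (-1.55). Serpina3g was below at 0.14 to 0.19 TPM, and the other 5 of the 9 listed, Cst6 and the stefin A genes, averaged under 0.1 TPM.

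Of 8 genes for delivery to the lysosome, 4 lay above the reference and none below. Psap, which encodes the precursor of the saposins, had 3829, 4147 and 4200 TPM, higher than any cathepsin in each library. The mannose 6-phosphate receptors M6pr and Igf2r had 73.9, 63.8 and 70.9 TPM and 17.8, 20.7 and 26.8 TPM. Scarb2, the receptor that carries β-glucocerebrosidase, had 29.3, 27.9 and 29.2 TPM. The call of Igf2r was lost against the reference of genes of at least 5 TPM (0.67). Gnptab, Gnptg and Nagpa, which make the mannose 6-phosphate tag, and the sorting receptor Sort1 averaged 7.32 to 11.4 TPM and were not called, except Nagpa with FPKM (above, 1.01). Lgmn, the asparaginyl endopeptidase that processes several cathepsins, had 460, 469 and 467 TPM, a level between those of Ctss and Ctsz by mean.

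Levels were uneven among genes linked to cathepsins C and S, of which not all encode targets. Of 8 granule proteases that cathepsin C activates, 2 could be tested and lay below the reference, Prtn3 at 0.35 to 0.52 TPM and Elane at 0.11 to 0.16 TPM, and 4 were at 0 in all libraries. Of 8 genes of the MHC class II pathway, 4 lay above. Cd74, the invariant chain that cathepsin S trims, had 145, 107 and 109 TPM, followed by H2-Aa (46.3, 33.0 and 37.0 TPM), H2-Eb1 (32.0, 24.2 and 26.8 TPM) and H2-Ab1 (25.2, 22.5 and 25.6 TPM). The call of H2-Ab1 was lost against the reference of genes of at least 5 TPM (0.86). H2-DMa and H2-DMb1, which load peptides, were not called, and H2-Oa and H2-Ob lay below at 0.10 to 0.27 TPM.

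The MiT/TFE factors bind the sequence CACGTG in promoters of many lysosomal genes, a sequence that other factors such as MYC and USF proteins also bind. Tfec had 73.0, 55.3 and 50.4 TPM and Tfe3 had 27.7, 23.1 and 21.9 TPM, both above the reference, although the call of Tfe3 was lost against the reference of genes of at least 5 TPM (0.84). Mitf (13.6, 10.2 and 11.1 TPM) and Tfeb (4.70, 2.81 and 2.93 TPM) were not called. Tfeb was called below against the reference of genes of at least 5 TPM (-1.96), in the second quantification (-1.40) and without replicate 1 (-1.10), and Mitf was called above with FPKM (1.04). CACGTG, which reads the same on both strands, was searched in the 250 bases before each start in a table of promoters from RefSeq (GRCm38.p6). Of the 7 members with an entry there (Ctsa, Ctsc, Ctsd, Ctsk, Ctsl, Ctss and Ctsz), 3 had it, against 6.86% of the 27025 gene symbols in the table. The sites are shown with up to 10 bases on each side, the motif in capitals: Ctsa on the plus strand at chr2:164833751-164833776, Ctsd on the minus strand at chr7:142388057-142388077 and chr7:142387910-142387935, and Ctsl on the minus strand at chr13:64370741-64370766.
Ctsa: agcaaactgtCACGTGatgcagatgc
Ctsd: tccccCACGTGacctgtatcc
Ctsd: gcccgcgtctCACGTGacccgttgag
Ctsl: cgttagaagcCACGTGctgatctaaa

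These matches begin 12 bases before the second listed start of Ctsa, 245 and 98 before that of Ctsd and 236 before that of Ctsl. The site nearer to Ctsd lies within exon 1 of the longer transcript Ctsd-202. The Ctsl site lies inside the annotated span of its gene, downstream of the outermost start at chr13:64370890. That of Ctsa lies between exons 1 and 2 of the leading transcript Ctsa-202, and the window of the first listed Ctsa start held no match. A match describes letters only, since binding was not measured in these libraries. The window of Ctsd was also the richest of the 7 members in G and C, at 67.2% with 27 CpG, against 43.2% with 0 CpG for Ctsk and a median of 52.4% with 6 over all starts.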

How the data were processed

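The authors deposited both quantifications, on mm10 with GENCODE M21 per the deposited descriptions. Per the file headers, the first quantification holds gene tables with expected counts, TPM and FPKM, and transcript tables with expected counts and TPM. The second holds transcript tables with estimated counts and TPM. The sources used here name no quantification tools. Members were found by symbol, and identifiers that share a symbol were summed. Levels, log2(TPM + 0.1) minus the reference median, were tested with limma 3.58.1 over genes averaging at least 0.1 TPM. Spread was tested with edgeR 4.0.16 (R 4.3.3, TMM, prior count 2) on rounded expected counts, with at least 10 in every library. Quantifications were compared with limma for genes averaging at least 1 TPM in either. Calls needed a Benjamini-Hochberg adjusted p under 0.05 and, except for spread, a log2 value of at least 1. Alternatives included DESeq2 1.42.0 size factors and the deposited FPKM. Steps were tested on simulated data. Every pair of libraries differed beyond counting error (chi-square per degree of freedom 43.7 to 161). Named genes were the members, Gm49369, the 3 highest of each related list, and those below or not called where at most 3; the others named, osteoclast markers among them, were added after their values were seen. Members and lists were chosen with earlier results of these data known.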

Additional observations from a re-analysis of the deposited data

How the results depend on the processing

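Each member kept its call against the reference in all 80 alternatives run (pseudocount, filter, reference, FPKM, second quantification and each replicate left out). The counts of 8 members above, 0 varying, and 8 ordered pairs were the same in all alternatives, and the count of 0 differing between quantifications was the same except without centring, where it was 7. The share of protein-coding TPM was 3.11 in the second quantification, 3.77 in expected counts and 2.86 to 2.96 without each replicate. Ratios between quantifications that turned sign were Ctsb (-0.95) and Ctsl (-1.18) without centring, Ctsl with a pseudocount of 1 TPM (-0.18), Ctsc (0.0215) and Ctsh (0.0350) among genes of at least 10 TPM, and Ctsh without replicate 3; leaving out each replicate gave Ctsh -0.0827 to 0.0263. Against the reference of genes of at least 5 TPM, uncalled genes turned negative: Ctso (-0.80), Gnptab (-0.32), Gnptg (-0.86), Nagpa (-0.24), Sort1 (-0.87), H2-DMa (-0.89), H2-DMb1 (-0.82), Mitf (-0.22), S100a8 (-0.20) and Nfatc1 (-0.82). In the second quantification so did Ctso (-0.33), Gnptg (-0.31), Sort1 (-0.39), H2-DMa (-0.27), H2-DMb1 (-0.38) and Nfatc1 (-0.40), and H2-DMa without replicate 1, with -0.0132 to 0.289 over the replicates left out. The cause was not tested. No paired analysis was possible because there is 1 group. In the spread test, counts of Ctsd and Gm49369 summed before scaling, an alternative chosen after seeing the data, had an SD of 0.12 and no call. Depth limits Ctse and Ctsk, with 49 to 124 counts per library.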
